A study of Mus musculus with 2 samples.

Results

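The leptin receptor gene Lepr and 9 genes of its signalling (Leprot, Leprotl1, Jak2, Stat3, Sh2b1, Socs3, Ptpn1, Ptpn2 and Asb4) were followed in single cells of the mouse arcuate nucleus and median eminence. The 10 genes were taken by symbol from the 20210 genes of the authors' merged count table, and all 10 were found there. The cells came from 2 groups of CD-1 mice at postnatal day 10, with 1 library per group. The first group was Ins2-Cre;tdTomato+/-;Irx3/5+/-, heterozygous for both Irx3 and Irx5 and called Irx3/5dHet. The second was Ins2-Cre;tdTomato+/-, called Ctrl. Both groups therefore carry the Cre and the reporter, and the cells are those in which Cre driven by the Ins2 promoter had switched on tdTomato, sorted as viable and reporter-positive. Per the labels each library pooled 5 animals, so values belong to 1 pool per genotype. The series title gives postnatal neurogenesis and sensitivity to leptin as the questions asked of Irx3 and Irx5, which are homeodomain transcription factors.

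Leptin is a hormone of fat tissue that tells the hypothalamus about energy stores. It binds the long form of LEPR on arcuate neurons, the receptor-bound kinase JAK2 is activated, and STAT3 is phosphorylated and moves to the nucleus, where it induces Pomc and Socs3 and restrains Agrp. SOCS3 and the tyrosine phosphatases encoded by Ptpn1 and Ptpn2 then damp the signal, and arcuate Agrp/Npy and Pomc neurons are the classical cells in which this happens.

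Values are unique molecular identifiers (UMIs), 1 per captured transcript, summed over the cells of a type in a library and divided by all UMIs of those cells, and scaled to 1e6 UMIs (CPM). There were 3874 Irx3/5dHet and 3424 Ctrl cells after filtering, with 71137235 and 62708201 UMIs and medians of 17311 and 16723 UMIs per cell. Cell types were clusters of both libraries together, named from marker genes, and the 10 members had no part in the clustering. With 1 library per genotype there is no test between genotypes. Ratios are Irx3/5dHet over Ctrl with exact 95% intervals, which cover counting error only and not the variation between animals, litters or dissections. Genes with many UMIs have narrow intervals. Counts of types whose interval excludes 1 have no share over all genes beside them, so they describe the named genes only. Irx3 was at 0.590 CPM in Irx3/5dHet and 1.47 CPM in Ctrl cells (42 and 92 UMIs, ratio 0.402, 0.273 to 0.586). Irx5 was at 1.49 and 2.85 CPM (106 and 179 UMIs, ratio 0.522, 0.407 to 0.667), so both genes were lower in the library labelled Irx3/5dHet. The pools differed in their sex mix, since Xist was detected in 67.5% of Irx3/5dHet and 55.2% of Ctrl cells and the Y-linked Eif2s3y in 25.3% and 33.4%. Values of Lepr, Socs3 and Asb4 were therefore also taken in cells with Xist and no Y-linked UMI, and in cells with a Y-linked UMI and no Xist, which come from different mice of the same pool. The libraries shared 4 cell barcodes.

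The Agrp/Npy-like cells numbered 290 in Irx3/5dHet and 134 in Ctrl. Agrp and Npy led this cluster and gave it its name, with Agrp at 5839 and 6426 CPM and Npy at 19350 and 21130 CPM. These levels describe the cluster and are no check of its name. The Pomc-like cells numbered 152 and 70, with Pomc at 6503 and 6798 CPM.

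Lepr (ENSMUSG00000057722) lies on the plus strand at chr4:101717404-101815352 of GRCm38 and has 4 protein-coding transcripts with 4 different 3′ ends. Reads of a 3′ assay were summed over them, so the long signalling form cannot be told apart from the short forms. Leprot (ENSMUSG00000035212), the leptin receptor overlapping transcript, lies upstream on the same strand at chr4:101647718-101659364, and its annotated end is 58039 bases before the annotated start of Lepr. Its name comes from human, where the 2 genes share 5′ exons. Promoter windows of 300 bases, 250 before and 50 after a start site, were read from RefSeq's annotation of GRCm38.p6, which covered 8 of the 10 members with 11 windows. These start sites can differ from the gene starts given here. The Socs3 window lies wholly within the Socs3 gene span, chr11:117966079-117970047. The first of the 2 Lepr windows and the Leprot window are shown because the receptor and its upstream neighbour start separately. That of Socs3 is shown because it is the classical STAT3 target among the members. The second Lepr window, with 54.3% G and C, is not shown. Capitals mark the STAT motif TTCNNNGAA. The windows are chr4:101717157-101717456 (plus strand, Lepr, 61.3% G and C), chr4:101647533-101647832 (plus strand, Leprot, 60.7%) and chr11:117969317-117969616 (minus strand, Socs3, 73.3%), each printed 5′ to 3′ on the strand of its gene.
Lepr: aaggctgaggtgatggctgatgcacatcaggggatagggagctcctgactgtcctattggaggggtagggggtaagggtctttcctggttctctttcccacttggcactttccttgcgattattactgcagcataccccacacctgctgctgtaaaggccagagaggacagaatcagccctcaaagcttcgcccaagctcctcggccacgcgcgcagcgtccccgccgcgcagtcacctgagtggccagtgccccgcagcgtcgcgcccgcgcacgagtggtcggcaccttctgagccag
Leprot: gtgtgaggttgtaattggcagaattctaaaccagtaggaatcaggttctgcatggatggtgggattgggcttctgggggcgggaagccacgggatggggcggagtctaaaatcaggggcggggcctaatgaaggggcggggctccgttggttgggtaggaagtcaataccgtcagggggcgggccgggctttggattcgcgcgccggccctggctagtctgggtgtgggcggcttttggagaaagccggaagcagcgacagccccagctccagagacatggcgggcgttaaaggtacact
Socs3: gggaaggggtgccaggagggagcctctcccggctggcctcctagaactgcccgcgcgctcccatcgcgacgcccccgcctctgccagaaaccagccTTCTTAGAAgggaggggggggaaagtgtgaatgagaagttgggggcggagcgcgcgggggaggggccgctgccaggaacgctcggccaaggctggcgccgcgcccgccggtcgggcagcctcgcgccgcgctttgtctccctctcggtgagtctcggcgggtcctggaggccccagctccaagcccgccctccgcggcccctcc

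The Socs3 window holds 1 STAT motif, TTCTTAGAA, whose first base is 154 bases before the window's start site. Like its window, this motif lies within the Socs3 gene span and not upstream of it. TTCNNNGAA was in none of the other 10 member windows. Over all 32851 promoter windows of the same table, 8.30% held this motif on either strand. The motif ACANNTGT, which Iroquois factors such as IRX3 and IRX5 bind, was in 1 of the 11 windows, against 7.38% of all windows. It was in 1 of the 2 windows of Sh2b1, within the gene span, with its first base 4 bases before that window's start site. The AP-1 motif TGANTCA was in none of the 11, against 7.81% of all windows. A match describes letters in these windows and is not a site, and no match says nothing of the factor. All 3 motifs are palindromes, so each match counts for both strands.

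Lepr transcript was concentrated in Agrp/Npy-like neurons and was higher there in Irx3/5dHet. In these cells Lepr gave 206 UMIs in Irx3/5dHet and 60 in Ctrl, or 26.5 CPM (interval 22.99 to 30.4) and 14.8 CPM (11.3 to 19.1), a ratio of 1.79 (1.33 to 2.42). At least 1 Lepr UMI was found in 134 of 290 Irx3/5dHet cells (46.2%) and in 46 of 134 Ctrl cells (34.3%), at median depths of 28492 and 32019 UMIs. The deeper Ctrl cells thus had the lower share. The 5 cells with the most Lepr UMIs held 11.2% of the total in Irx3/5dHet and 21.7% in Ctrl, so the counts were spread over many cells.

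At a common depth the order was the same, with intervals that overlap at both depths tried. After thinning each cell to 15000 UMIs, Lepr was detected in 71 of 250 Irx3/5dHet cells (28.4%, exact interval 22.9 to 34.4) and in 20 of 120 Ctrl cells (16.7%, 10.5 to 24.6), with 40 and 14 shallower cells left out. At 4000 UMIs the shares were 10.8% (7.43 to 14.9) and 6.87% (3.19 to 12.6). At 15000 UMIs, 53 Irx3/5dHet cells had 1 Lepr UMI, 13 had 2 and 5 had 3 or more. In Ctrl the numbers were 16, 3 and 1. The share of cells with 1 UMI and the share with more were both higher in Irx3/5dHet.

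**Figure D1:**
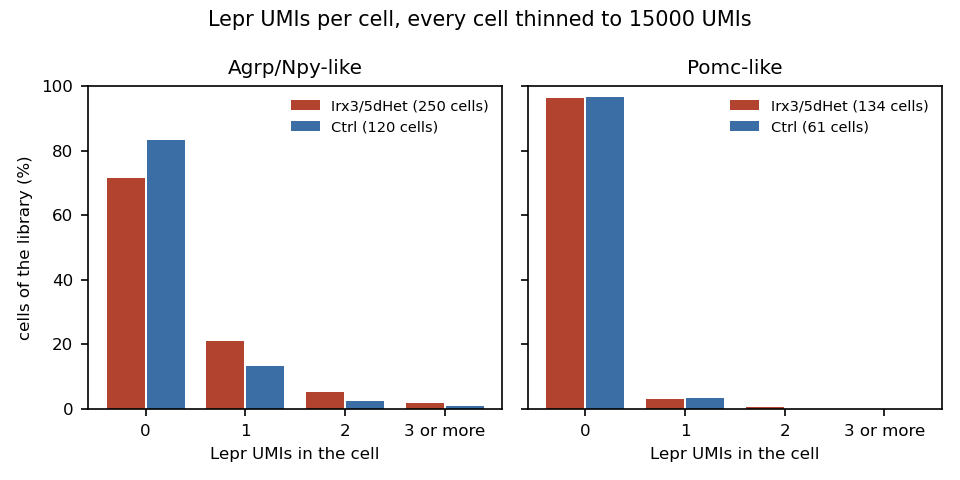
Share of Agrp/Npy-like cells (y axis, percent) by the number of Lepr UMIs in a cell thinned to 15000 UMIs (x axis), for Irx3/5dHet and Ctrl, 1 library each. Cells with at least 1 Lepr UMI made up 28.4% of the Irx3/5dHet cells and 16.7% of the Ctrl cells.

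Agrp/Npy-like cells were 7.49% of Irx3/5dHet cells and 3.91% of Ctrl cells, and held 68.9% and 44.1% of all Lepr UMIs. Over all kept cells Lepr was at 4.20 and 2.17 CPM (299 and 136 UMIs, ratio 1.94, 1.58 to 2.39). More Agrp/Npy-like cells in the sample and a higher Lepr level within them both enter that ratio. The value within the type does not count the share of such cells. The sex mix, and RNA from outside the cell, which was not tested, can still enter it. In cells with Xist and no Y-linked UMI, Lepr in Agrp/Npy-like cells was at 25.4 CPM in 152 Irx3/5dHet cells and 12.6 CPM in 71 Ctrl cells (ratio 2.02, 1.33 to 3.17). In cells with a Y-linked UMI and no Xist it was at 26.6 CPM in 121 and 18.6 CPM in 51 cells (ratio 1.43, 0.926 to 2.27). The direction was the same in both subsets, and in the second the interval includes 1.

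Among the other named types and neuron clusters, Lepr was highest in a neuron cluster led by Trh and Ebf1, and there the ratio ran the other way. It had 4.81 CPM in Irx3/5dHet and 12.9 CPM in Ctrl, from 8 and 14 UMIs in 89 and 47 cells (ratio 0.372, 0.135 to 0.949). Both of its counts are small, and 5 cells held 62.5% and 78.6% of them.

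Pomc-like cells had far less Lepr than Agrp/Npy-like cells. They gave 20 Lepr UMIs in Irx3/5dHet and 6 in Ctrl, in 17 of 152 and 6 of 70 cells, or 4.62 CPM (2.82 to 7.14) and 2.90 CPM (1.07 to 6.32), a ratio of 1.59 (0.617 to 4.85). At this depth no difference between genotypes was detectable in Pomc-like cells. Thinned to 15000 UMIs, 5 of 134 and 2 of 61 Pomc-like cells had a Lepr UMI (3.73% and 3.28%). Astrocyte-like cells, taken as a type in which UMIs of a neuronal gene can come from free RNA, had Lepr at 2.13 CPM in Irx3/5dHet (interval 0.781 to 4.63) and 0.798 CPM in Ctrl (0.0966 to 2.88), with a UMI in 3 of 421 and 2 of 413 cells at median depths of 6460 and 5653 UMIs. The Pomc-like level was above the astrocyte-like level in both libraries, and the intervals overlap in both. Agrp in astrocyte-like cells was at 14.9 CPM in Irx3/5dHet and 6.78 CPM in Ctrl, against 663.7 and 442.7 CPM over all kept cells. The part of free RNA in the Lepr values was not tested.

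Elsewhere Lepr was sparse. The neuron cluster led by Tbx19 and Dlx6os1 had 2.10 and 4.15 CPM (7 and 17 UMIs, ratio 0.507, 0.178 to 1.29). Sst-like neurons had 4 and 10 UMIs, ventromedial-like neurons 12 and 6, and tanycyte-like cells 3 and 1. Trh-like neurons had 5 UMIs in Irx3/5dHet, all from 1 cell, and 0 in Ctrl, and a shallow unnamed cluster led by Sparc and Ifitm3 had 4, again from 1 cell, and 0. No Lepr UMI was found in either library in cycling-like, ependymal-like, oligodendrocyte precursor-like or pars tuberalis-like cells. In precursor-like cells, 78 and 96 in number, the exact 95% intervals of this count of 0 reach 6.56 CPM in Irx3/5dHet and 4.68 CPM in Ctrl.

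**Figure D2:**
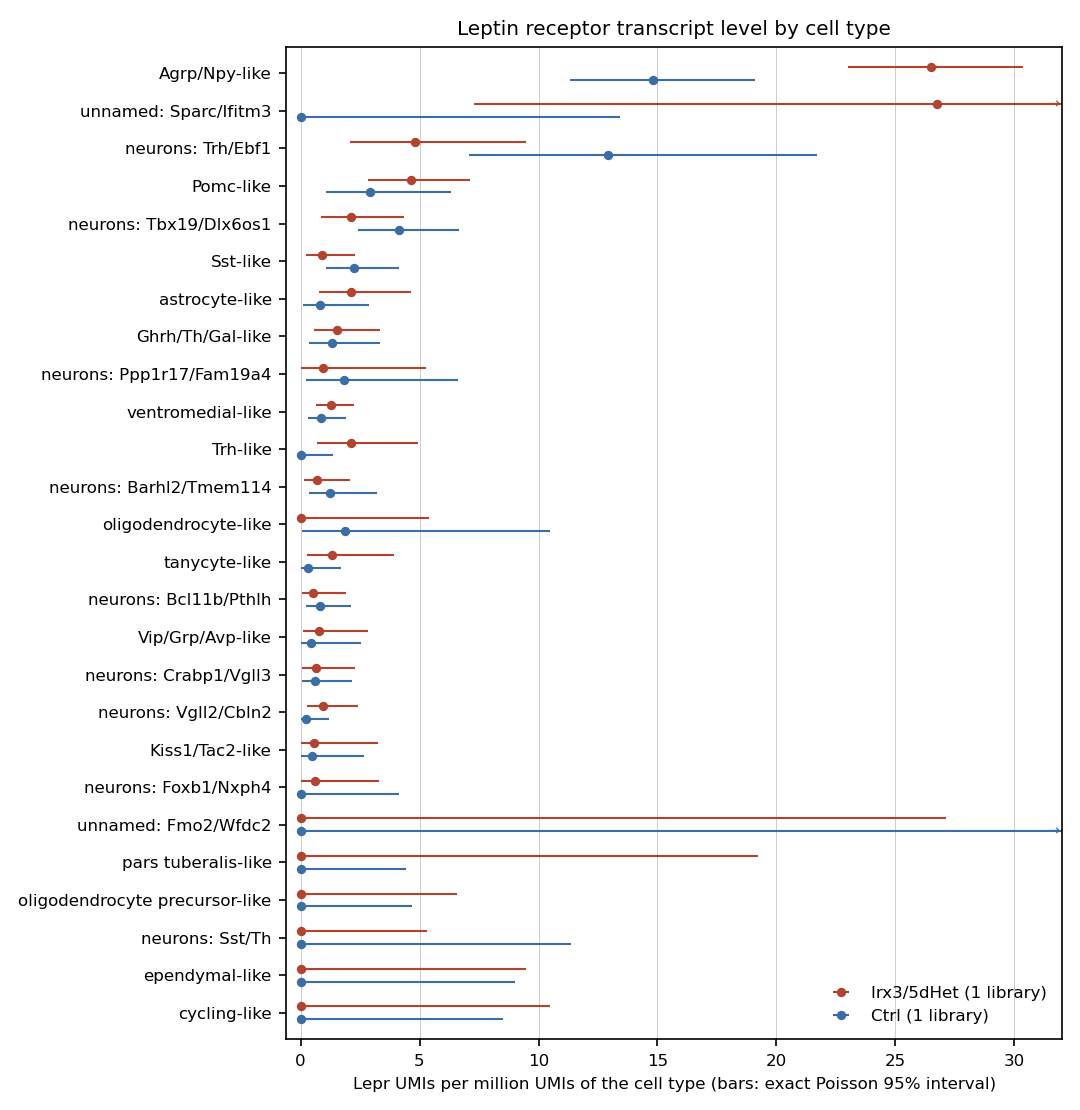
Lepr level in CPM (x axis) by cell type (y axis) in Irx3/5dHet and Ctrl, 1 library each, with exact 95% counting intervals as bars. Agrp/Npy-like cells stand at 26.5 and 14.8 CPM, above the other named types, and the cluster led by Trh and Ebf1 shows the opposite order at 4.81 and 12.9 CPM.

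Across 30 clusters of at least 50 cells, the genes whose log2(CPM + 5) was most like that of Lepr were Rspo4 (Pearson's r = 0.79), Agrp (0.76), Pgr15l (0.74), Cldn12 (0.69) and Acvr1c (0.67), out of 11714 genes ranked. The clusters share libraries and depth, and 1 cluster carries most of the signal, so these are descriptions. Acvr1c was at 126.9 CPM in Irx3/5dHet and 70.2 CPM in Ctrl Agrp/Npy-like cells, and Cldn12 at 67.4 and 40.0 CPM. Rspo4, at 25.8 and 28.7 CPM, and Agrp were not higher in Irx3/5dHet, so not all genes with a pattern like that of Lepr over clusters shared its order between genotypes. Among the members, Asb4 (0.40) and Stat3 (0.38) were most like Lepr.

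Leprot encodes a small membrane protein of the endosome that lowers the number of leptin receptors at the cell surface, and unlike Lepr it was present in all cell types. It was at 58.6 CPM in Irx3/5dHet and 44.7 CPM in Ctrl Agrp/Npy-like cells (456 and 181 UMIs, ratio 1.31, 1.10 to 1.57), and the ratio turned to 0.966 in cells of middling depth (25th to 75th percentile). In Pomc-like cells it was at 62.2 and 49.3 CPM (ratio 1.26, 1.00 to 1.599) and in Kiss1/Tac2-like cells at 53.1 and 37.5 CPM (1.42, 1.04 to 1.95). Its highest levels were in oligodendrocyte-like cells, at 88.0 and 90.2 CPM, and precursor-like cells, at 83.6 and 85.0 CPM, where Lepr had at most 1 UMI in a library. Its lowest were in Vip/Grp/Avp-like neurons, at 24.6 and 31.8 CPM. Over all cells it stood at 50.8 and 46.7 CPM (1.09, 1.04 to 1.14), and no type with at least 20 UMIs had an interval wholly below 1.

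Leprotl1 (ENSMUSG00000031513, chr8:34135572-34147033, minus strand), the paralog of Leprot with a like effect on receptors at the cell surface, varied less between genotypes. It was at 71.4 and 63.0 CPM in Agrp/Npy-like cells (555 and 255 UMIs, ratio 1.13, 0.975 to 1.32) and at 71.7 and 65.1 CPM in Ghrh/Th/Gal-like neurons, its highest levels. Pars tuberalis-like cells had 20.9 and 30.0 CPM and astrocyte-like cells 35.5 and 31.5 CPM. Of 24 types, 1 had an interval that excluded 1, the neuron cluster led by Barhl2 and Tmem114 (1.26, 1.01 to 1.57). Over all cells the ratio was 1.04 (0.994 to 1.09).

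Jak2 (ENSMUSG00000024789, chr19:29251828-29313080, plus strand), the kinase that LEPR activates, did not follow Lepr. It was at 11.8 CPM in Irx3/5dHet and 13.1 CPM in Ctrl Agrp/Npy-like cells (92 and 53 UMIs, ratio 0.903, 0.637 to 1.29), below its level over all cells of 16.6 and 17.7 CPM. Tanycyte-like cells had 28.1 and 22.96 CPM and ependymal-like cells 54.0 and 36.7 CPM, the highest named type over both libraries. None of 21 types with at least 20 Jak2 UMIs had an interval that excluded 1.

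Stat3 (ENSMUSG00000004040, chr11:100885098-100939540, minus strand), which carries the signal to the nucleus, was highest in Agrp/Npy-like cells and level between genotypes there. It gave 964 UMIs in Irx3/5dHet and 507 in Ctrl, or 123.9 and 125.3 CPM (ratio 0.990, 0.888 to 1.10), with a UMI in 91.4% and 91.0% of cells. These cells held 34.6% and 20.8% of all Stat3 UMIs. Pomc-like neurons had less, at 42.5 and 44.97 CPM (0.946, 0.733 to 1.23). Astrocyte-like cells had 90.4 and 90.9 CPM, oligodendrocyte precursor-like cells 81.8 and 76.1 CPM, and oligodendrocyte-like cells 38.1 and 33.8 CPM. Pars tuberalis-like cells had 72.98 and 86.35 CPM, from 14 and 72 UMIs, and the Lepr-bearing neuron cluster led by Trh and Ebf1 had 64.9 and 78.5 CPM.

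Stat3 was lower in Irx3/5dHet in tanycyte-like cells, at 49.9 and 70.1 CPM (112 and 229 UMIs, ratio 0.712, 0.563 to 0.897), and in the neuron cluster led by Tbx19 and Dlx6os1 (0.677, 0.511 to 0.890). No type had an interval wholly above 1. Stat3 overlaps Stat5a on the other strand, and the sources used here do not say whether the authors' counting used strand.

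Sh2b1 (ENSMUSG00000030733, chr7:126466994-126475424, minus strand), an adaptor that enhances JAK2 activity, was even over types and genotypes. It was at 22.4 and 21.7 CPM in Agrp/Npy-like cells (174 and 88 UMIs, ratio 1.03, 0.792 to 1.35) and at 25.4 and 23.2 CPM in Pomc-like cells. Ventromedial-like neurons had 32.4 and 39.5 CPM (0.818, 0.692 to 0.968), and the neuron cluster led by Crabp1 and Vgll3 had a ratio of 0.714 (0.509 to 0.997) that became 1.12 when cells were thinned to 4000 UMIs. Over all cells it was at 26.6 and 26.9 CPM (0.990, 0.926 to 1.06).

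**Figure D3:**
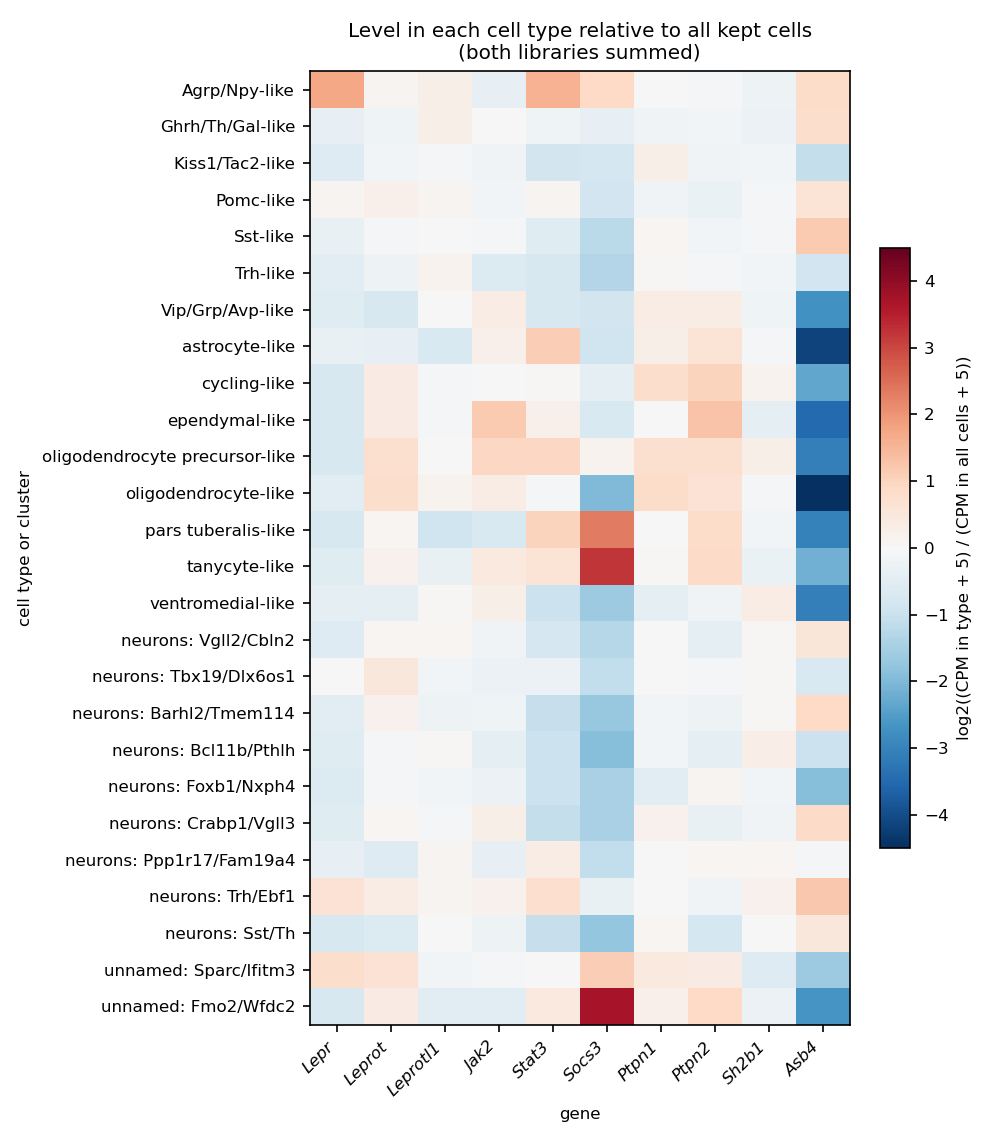
Level of each of the 10 members (columns) in each cell type or cluster (rows), as log2 of CPM + 5 over the same value in all kept cells, both libraries summed. Lepr is highest in Agrp/Npy-like cells (1.74), Stat3 is high in Agrp/Npy-like and astrocyte-like cells, and Socs3 is high in tanycyte-like and pars tuberalis-like cells and in an unnamed cluster of 17 cells.

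Socs3 (ENSMUSG00000053113, chr11:117966079-117970047, minus strand), the feedback inhibitor that STAT3 induces, was lower in Irx3/5dHet in Agrp/Npy-like and several other neuron types. The Agrp/Npy-like cells gave 160 UMIs in Irx3/5dHet and 221 in Ctrl, or 20.6 and 54.6 CPM (ratio 0.377, 0.306 to 0.464), with a UMI in 37.2% and 61.9% of cells. Lepr and Socs3 thus ran in opposite directions in the same cells. Pomc-like cells had 4.39 and 9.67 CPM (19 and 20 UMIs, 0.454, 0.229 to 0.896) and the cluster led by Trh and Ebf1 7.21 and 16.6 CPM (12 and 18 UMIs, 0.434, 0.191 to 0.952). Vip/Grp/Avp-like (0.262), Sst-like (0.431) and Ghrh/Th/Gal-like (0.593) neurons also had intervals below 1. Of 14 types with at least 20 UMIs, 7 had an interval wholly below 1 and 1 wholly above it. The same share over all genes is not given.

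Immediate early genes, which respond to activity and to dissociation alike, were lower in the same cells. Of the 18 listed ones with at least 50 UMIs, 16 were lower in Agrp/Npy-like cells of Irx3/5dHet, where 50.3% of all genes were higher. Their median log2 ratio was -1.35 against 0.0016 over all genes. Their summed level was 1167 and 2463 CPM. Fos was at 81.7 and 448.7 CPM (0.182, 0.166 to 0.199), Jun at 126.1 and 380.2 CPM (0.332), Egr1 at 36.0 and 135.9 CPM (0.265) and Ier2 at 15.9 and 38.5 CPM (0.414). Lower levels were not confined to this type. Over all kept cells the ratios were 0.359 for Fos, 0.589 for Jun, 0.455 for Egr1 and 0.544 for Ier2. For Fos the ratio was 0.231 in Vip/Grp/Avp-like neurons, 0.321 in ventromedial-like neurons and 0.504 in the cluster led by Bcl11b and Pthlh. Socs3 is known to respond to such stimuli too. Over 30 clusters its level was most like that of Sntb2 (Pearson's r = 0.89), Fosb (0.85), Hibadh (0.85), Ier2 (0.84) and Zfp36 (0.83), with Stat3 at 0.66. Socs3 was higher in tanycyte-like cells (127.9 CPM in Irx3/5dHet and 218.3 CPM in Ctrl) than in any neuron type. How far these likenesses rest on tanycyte-like cells was not tested. They describe clusters and not the order between genotypes within Agrp/Npy-like cells. The part of the immediate early response in the Socs3 values was not tested. In Pomc-like cells 8 of 10 listed genes were lower (median -0.25), where 45.9% of all genes were higher. In astrocyte-like cells 5 of 10 were lower (median -0.12), near the share of all genes, of which 47.4% were higher. Socs3 in astrocyte-like cells was at 6.38 and 4.79 CPM (18 and 12 UMIs, ratio 1.33, 0.608 to 3.04).

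Of the glucocorticoid and fasting list, 9 genes were measured in Agrp/Npy-like cells. In Irx3/5dHet 5 were higher and 4 lower, where 50.3% of all genes were higher. The median log2 ratio was 0.13 against 0.0016 over all genes, and 2 were past 1.5-fold, both upward. In these cells 1.91% of 10410 genes passed 1.5-fold in either direction. Zbtb16, which glucocorticoids induce, was at 25.6 and 2.47 CPM (199 and 10 UMIs, ratio 10.4, 5.52 to 21.9), and Cdkn1a, a stress-responsive inhibitor of the cell cycle, was at 38.3 and 5.44 CPM (7.05, 4.57 to 11.4). Fkbp5, another glucocorticoid target, was at 14.1 and 7.91 CPM (1.79, 1.20 to 2.74), whereas Tsc22d3, also a glucocorticoid target, was at 33.8 and 43.7 CPM (0.773, 0.637 to 0.941). Their part in the Lepr and Socs3 values was not tested.

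Tanycyte-like cells, the glia that line the floor of the third ventricle, held more Socs3 UMIs than any other type. They gave 287 UMIs in Irx3/5dHet and 713 in Ctrl, or 40.6% and 54.9% of all Socs3 UMIs, at 127.9 and 218.3 CPM (ratio 0.586, 0.509 to 0.673). Most of it came from 1 of the 2 tanycyte clusters, led by Scn7a and Cldn10 and with Socs3 itself among its leading genes, which had 465.2 and 625.0 CPM in 56 and 87 cells (0.744, 0.644 to 0.859). The other, led by S100a6 and Crym, had 11.98 and 18.7 CPM in 197 and 238 cells. In Irx3/5dHet 5 cells held 46.0% of the tanycyte Socs3 UMIs and in Ctrl 31.6%. Of 21 immediate early genes measured, 17 were lower in tanycyte-like cells (median log2 ratio -0.76), where 46.5% of all genes were higher. Fos was at 601.3 and 1358 CPM.

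The direction of Socs3 in tanycyte-like cells differed between the subsets split by Xist and Y-linked UMIs. Only 43 of 253 Irx3/5dHet and 79 of 325 Ctrl tanycyte-like cells had a Socs3 UMI. The counting intervals take each UMI as separate, so they do not cover this clumping in few cells. How the 2 tanycyte clusters were mixed in each subset is not given, and its part in the difference was not tested. In cells with Xist and no Y-linked UMI, Socs3 was at 58.6 CPM in Irx3/5dHet and 243.5 CPM in Ctrl (0.241, 0.188 to 0.304). In cells with a Y-linked UMI and no Xist it was at 245.1 and 128.8 CPM (1.90, 1.47 to 2.47). Over all kept cells Socs3 was at 9.94 and 20.7 CPM (707 and 1298 UMIs, 0.480, 0.438 to 0.527), with 0.256 (0.225 to 0.291) in Xist cells and 1.21 (1.03 to 1.42) in Y-linked cells. The lower Socs3 over all cells and in tanycyte-like cells thus held in Xist cells and not in Y-linked cells. Fos in tanycyte-like cells was at 452.3 and 1510 CPM in Xist cells (0.300, 0.275 to 0.326) and 868.7 and 901.9 CPM in Y-linked cells (0.963, 0.862 to 1.08). Socs3 of Agrp/Npy-like cells was lower in both, at 20.95 and 54.2 CPM in Xist cells (0.387, 0.290 to 0.514) and 16.7 and 53.8 CPM in Y-linked cells (0.311, 0.217 to 0.443). Pars tuberalis-like cells had 140.7 and 83.95 CPM (1.68, 1.03 to 2.65), from 15 and 59 cells, with all 27 UMIs of Irx3/5dHet in at most 5 cells.

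**Figure D4:**
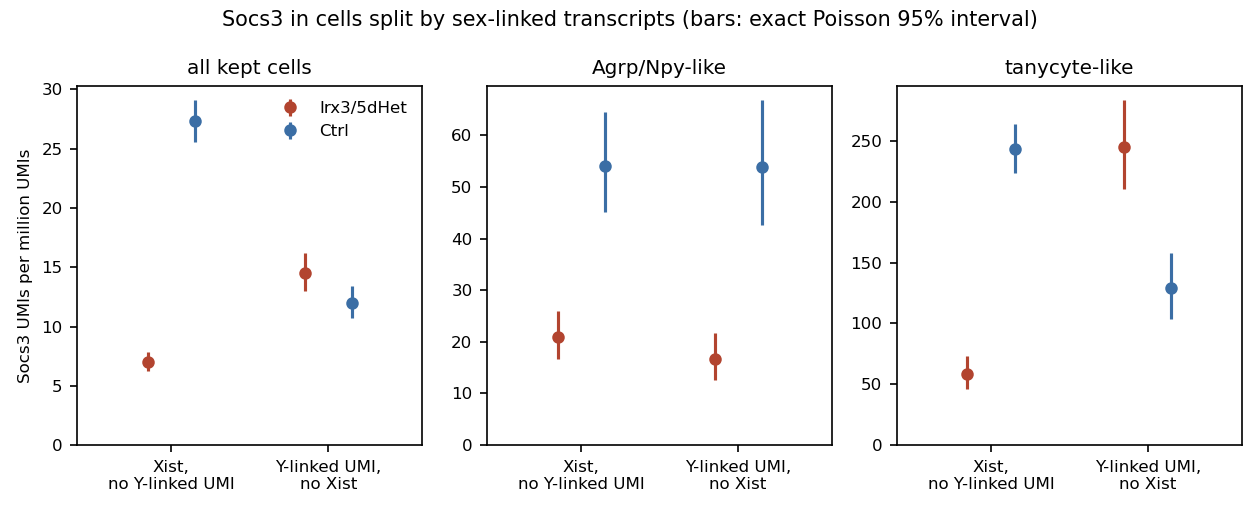
Socs3 level in CPM (y axis) in all kept cells, Agrp/Npy-like and tanycyte-like cells, split into cells with Xist and no Y-linked UMI and cells with a Y-linked UMI and no Xist, for Irx3/5dHet and Ctrl with exact 95% counting intervals. In Agrp/Npy-like cells Irx3/5dHet is lower in both subsets, and in tanycyte-like cells it is lower in Xist cells (58.6 and 243.5 CPM) and higher in Y-linked cells (245.1 and 128.8 CPM).

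Ptpn1 (ENSMUSG00000027540, chr2:167932057-167979385, plus strand), whose product PTP1B removes phosphate from JAK2, was slightly lower over all Irx3/5dHet cells, at 46.9 and 52.7 CPM (ratio 0.889, 0.847 to 0.933). Agrp/Npy-like cells had the other order, at 51.6 and 43.0 CPM (401 and 174 UMIs, 1.20, 1.00 to 1.44). Of 24 types, this 1 had an interval above 1 and 4 had one below it. The lowest of these was the neuron cluster led by Trh and Ebf1, at 40.2 and 63.7 CPM (0.632, 0.445 to 0.897), where Lepr was lower too. The others were the cluster led by Barhl2 and Tmem114 (0.795, but 1.17 at 4000 UMIs per cell), and the Vip/Grp/Avp-like (0.744) and Sst-like (0.823) neurons.

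Ptpn2 (ENSMUSG00000024539, chr18:67665511-67724595, minus strand), whose product TCPTP removes phosphate from STAT3, was lower in Irx3/5dHet in several types, while the interval in Agrp/Npy-like cells included 1. Over all cells it was at 13.3 and 17.8 CPM (943 and 1114 UMIs, ratio 0.746, 0.684 to 0.815). Kiss1/Tac2-like neurons had 6.42 and 18.7 CPM (11 and 39 UMIs, 0.343, 0.158 to 0.683), and Ghrh/Th/Gal-like (0.560), Trh-like (0.575), tanycyte-like (0.667, but 1.003 at 15000 UMIs per cell) and 2 other neuron clusters (0.500 and 0.523) also had intervals below 1. Agrp/Npy-like cells had 13.5 and 14.8 CPM (105 and 60 UMIs, 0.911, 0.657 to 1.27). None of 23 types had an interval above 1.

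Asb4 (ENSMUSG00000042607, chr6:5383386-5433022, plus strand), an ankyrin and SOCS box protein of the arcuate nucleus that is known to bind IRS4 there, was a marker of many neuron types. Sst-like neurons had 407.1 CPM in Irx3/5dHet and 341.2 CPM in Ctrl, the cluster led by Trh and Ebf1 381.4 and 378.6 CPM, and Agrp/Npy-like cells 314.9 and 248.8 CPM (2449 and 1007 UMIs, ratio 1.27, 1.18 to 1.36). Pomc-like cells had 264.6 and 223.4 CPM (1.19, 1.06 to 1.32) and Ghrh/Th/Gal-like neurons 301.1 and 265.0 CPM (1.14, 1.04 to 1.24, but 0.811 in cells of middling depth). In astrocyte-like cells it was at 5.67 and 3.19 CPM. Asb4 was detected in 96.6% and 93.3% of Agrp/Npy-like cells, against 2.85% and 1.94% of astrocyte-like cells.

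The interval of the Asb4 ratio was above 1 in 9 of 21 types and below 1 in 1, the neuron cluster led by Foxb1 and Nxph4, at 26.7 and 62.8 CPM (45 and 56 UMIs in 63 and 32 cells, 0.425, 0.280 to 0.640). In that cluster 9 and 8 cells had an Asb4 UMI, and 5 cells held 91.1% and 89.3% of the UMIs. Over all cells it was at 178.8 and 145.9 CPM (1.23, 1.19 to 1.26). The size differed between the sexes of the pool, with ratios of 1.09 (1.05 to 1.13) in Xist cells and 1.54 (1.47 to 1.61) in Y-linked cells. Within Agrp/Npy-like cells they were 1.16 (1.06 to 1.28), at 326.2 and 280.4 CPM, and 1.48 (1.30 to 1.68), at 312.2 and 211.2 CPM. The direction was the same in both. Genes most like Asb4 over 30 clusters included Gabre (Pearson's r = 0.82), AI467606 (0.81), Dgkk (0.80) and Cited4 (0.80).

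**Figure D5:**
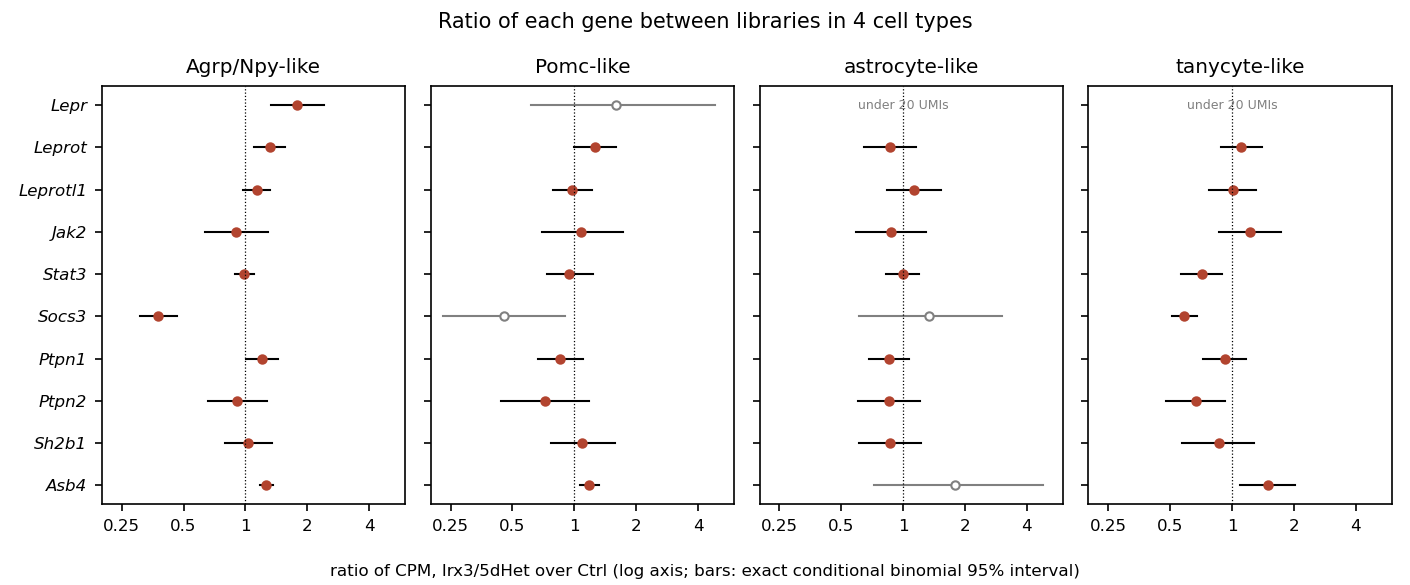
Ratio of CPM in Irx3/5dHet over Ctrl (x axis, log scale) for the members with exact 95% counting intervals in 4 cell types, with a line at 1. In Agrp/Npy-like cells Lepr (1.79) and Socs3 (0.377) lie farthest from 1 on either side, and Stat3 (0.990) lies on it.

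Few members differed by 1.5-fold or more, taken on the log2(CPM + 5) scale for genes whose UMIs in the type summed to 50 or more. Among Agrp/Npy-like cells all 10 members were measured, with Lepr past it upward and Socs3 downward, where 1.91% of 10410 genes passed in either direction. Over all cells Socs3 alone passed, where 0.545% of 15601 genes did. In Pomc-like cells 8 were measured, without Lepr and Socs3, and none passed, where 2.25% of genes did. In tanycyte-like cells Socs3 alone passed, against 3.52% of genes. Ptpn2 alone passed in Ghrh/Th/Gal-like (1.6% of genes), Kiss1/Tac2-like (3.29%) and 2 neuron clusters led by Tbx19 and Dlx6os1 (1.7%) and by Bcl11b and Pthlh (1.3%). None passed in the other types compared, which were astrocyte-like (3.98% of genes), Vip/Grp/Avp-like (3.54%), Trh-like (2.91%), ventromedial-like (1.17%) and Sst-like (1.03%) cells and the neuron clusters led by Crabp1 and Vgll3 (1.71%), Barhl2 and Tmem114 (1.5%) and Vgll2 and Cbln2 (1.3%). With at most 10 members per type, these counts are read as named genes only.

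In the wider list of 45 leptin signalling genes, 41 were measured in Agrp/Npy-like cells. Of these, 30 were higher and 11 lower in Irx3/5dHet, with a median log2 ratio of 0.08 against 0.0016 for all genes, and 2 (Lepr and Pik3r1) were past 1.5-fold upward and 1 (Socs3) downward. Over all 10410 genes measured there, 50.3% were higher and 1.91% passed 1.5-fold in either direction. Pik3r1, the regulatory subunit of phosphoinositide 3-kinase through which leptin and insulin also act, was at 61.9 and 26.9 CPM (481 and 109 UMIs, ratio 2.30, 1.86 to 2.85). Ptpn11, the phosphatase SHP2 that links LEPR to the ERK pathway, was at 98.0 and 77.8 CPM (1.26, 1.10 to 1.44), and the kinase gene Akt2 at 16.5 and 12.3 CPM (1.33, 0.954 to 1.89). In Pomc-like cells 36 of the list were measured, 19 higher and 17 lower (median 0.07 against -0.02), none past 1.5-fold. Over all genes measured in Pomc-like cells 45.9% were higher and 2.25% passed 1.5-fold. Of its genes, Pik3ca was at 51.3 and 38.2 CPM there (1.34, 1.04 to 1.76).

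Other cytokine receptors of Agrp/Npy-like cells were set beside Lepr. Of 8 measured, 5 were higher and 3 lower, where 50.3% of all genes were higher. The growth hormone receptor Ghr was at 277.6 and 194.4 CPM (2159 and 787 UMIs, ratio 1.43, 1.32 to 1.55), and the interleukin-11 receptor Il11ra1 at 7.84 and 16.6 CPM (0.474, 0.329 to 0.681). The intervals of the other 6, which are Il6st (1.18), Cntfr (1.15), Prlr (1.08), Ifnar1 (1.05), Ifngr1 (0.976) and Lifr (0.852), all include 1. Of 7 measured genes of the list of peptides and enzymes that leptin regulates, 1 was higher and 6 were lower. Their median log2 ratio was -0.13, and 50.3% of all genes were higher. This list was not held out of the clustering, so its values are not independent of how the cells were grouped. Agrp (0.909) and Npy (0.916) were close to level in these cells, Gal was at 15.3 and 10.6 CPM (1.44, 1.01 to 2.09), and Cartpt was at 103.6 and 158.1 CPM (0.655, 0.590 to 0.728) and Pomc, the marker of another neuron type here, at 47.5 and 77.3 CPM (0.614, 0.526 to 0.716).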

How the data were processed

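Viable tdTomato-positive cells of 2 pooled samples were profiled with 10x Genomics 3′ v3 chemistry, per the labels' protocols. The authors counted reads with Cell Ranger 3.0.2, per the file headers, and the submitters' processing notes name mm10. The deposited values are raw UMI counts. The merged table was used, with 3939 Irx3/5dHet and 3479 Ctrl barcodes and 20210 of 31053 genes. None of its entries for the members differed from the deposited matrices. It holds no barcode with 20% or more mitochondrial UMIs or with over 7501 genes, a filter not described in the sources used here.

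Barcodes with at least 500 genes were kept. Scrublet (in scanpy 1.11.5, expected rate 4%), run on the deposited matrices, marked 31 (0.779%) and 23 (0.642%) doublets, of which 25 and 17 were in the table and were removed. Cells were clustered by the Leiden method (2000 variable genes, 30 principal components, 15 neighbours, resolution 1). The members, sex-linked genes and the pathway lists were left out of it, except the list of peptides and enzymes that leptin regulates. Agrp, Npy and Pomc could thus enter the clustering. A cluster was named when at least 3 of a type's markers were in 25% or more of its cells and its leading genes did not favour another type. For the counts past 1.5-fold, types with at least 100 cells per library were compared. Pomc-like cells, with 70 in Ctrl, were added because they were named in the design. Ratios of smaller types are given too, and rest on few cells. Counts of types by interval took every type with at least 20 UMIs of the gene. UMIs were summed per type and library. Ratios have exact conditional binomial intervals, levels exact Poisson intervals and shares exact Clopper-Pearson intervals. Genes were counted past 1.5-fold with a pseudocount of 5 CPM and at least 50 UMIs. Counting was tested on simulated counts. Named genes were all members, Irx3 and Irx5, up to 4 others of the leptin list per type by size of log2 ratio, 8 fixed immediate early and glucocorticoid genes, cytokine receptors with at least 50 UMIs, and the 5 genes most like Lepr, Asb4 and Socs3. TMM factors came from edgeR 4.0.16. The members and lists were chosen with earlier results of these data known. Positions are from GENCODE on GRCm38, and promoters from RefSeq on GRCm38.p6. Some clusters and genes are not reported here.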

Additional observations from a re-analysis of the deposited data

Results flagged for a closer look

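Lepr, Socs3, Ptpn1 and Asb4 had ratios of Irx3/5dHet over Ctrl that lay on opposite sides of 1 in 2 cell types, with both counting intervals excluding 1. None of these differences between types was tested, since each genotype had 1 library. Lepr had a ratio of 1.79 in Agrp/Npy-like cells and 0.372 in the neuron cluster led by Trh and Ebf1. Socs3 had 1.68 in pars tuberalis-like cells, where 4 cells held all 27 Irx3/5dHet UMIs, and 0.377 in Agrp/Npy-like cells. Ptpn1 had 1.20 in Agrp/Npy-like cells and 0.632 in the cluster led by Trh and Ebf1. Asb4 had 1.27 in Agrp/Npy-like cells and 0.425 in the cluster led by Foxb1 and Nxph4, where 5 cells held 91.1% and 89.3% of its UMIs. Agrp/Npy-like cells are on 1 side of each of these pairs, but for Asb4 and Socs3 they were not alone there. Asb4 had an interval above 1 in 9 types, and Socs3 had one below 1 in 7.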

How the results depend on the processing

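Over 16 alternatives, 1254 recomputed values were set against 136 results: 1134 held, 113 moved beyond their interval and 7 reversed. The share that held differed by alternative. With TMM normalization 135 of 136 held. With cells thinned to 4000 UMIs 88 of 134 held and 44 moved, and in cells of the percentile range 110 of 136 held and 24 moved. Cells thinned to 15000 UMIs and the split by Xist and Y-linked UMIs were chosen after seeing the data. Lepr in Agrp/Npy-like cells ranged over 1.41 to 2.26 and Socs3 there over 0.311 to 0.444, without a change of direction. Lepr over all cells was 1.52 at 4000 UMIs per cell and 1.502 in cells of middling depth (25th to 75th percentile). Socs3 over all cells was 0.408 at 15000 UMIs, 0.399 in the percentile range, 0.536 with cells weighted equally, 0.256 in Xist cells and 1.21 in Y-linked cells. Lepr in Pomc-like cells was 0.113 in the percentile range, from 1 and 3 UMIs, and had no value at 4000 UMIs, where Ctrl had 0. The median of the leptin list was 0.22 at 4000 and 0.0193 at 15000 UMIs. Reversed values were 1.21 for Socs3 over all cells (Y-linked cells), 0.966 for Leprot in Agrp/Npy-like and 0.811 for Asb4 in Ghrh/Th/Gal-like cells (percentile range), 1.00 (1.003) for Ptpn2 in tanycyte-like cells (15000 UMIs), 0.962 for Asb4 in tanycyte-like cells (Leiden resolution 2), and, at 4000 UMIs, 1.17 for Ptpn1 in the Barhl2 and 1.12 for Sh2b1 in the Crabp1 cluster. The cause was not tested. No paired analysis was possible because each genotype had 1 library. Leaving out a replicate could not be run for the same reason. Depth limits Lepr most, with at most 26 UMIs over both libraries in any type other than Agrp/Npy-like.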
